A study of Mus musculus with 8 samples.

Results

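The Maf factors and their CNC and Bach partners were followed in neurons that had lost Cic, which encodes the transcriptional repressor Capicua. The genes were taken by symbol from the deposited count tables: the small Maf genes Maff, Mafg and Mafk, the large Maf gene Maf, the Bach genes Bach1 and Bach2, and the CNC genes Nfe2l1 (NRF1) and Nfe2l2 (NRF2). All 8 genes were found among 24421 gene rows, and all 8 passed the filter on low counts that left 15438 genes for testing. There were 4 libraries labelled KO, from C57BL/6 mice with Otp-Cre, homozygous floxed Cic and ROSAfsTRAP, and 4 labelled Control, from C57BL/6 mice with Otp-Cre and ROSAfsTRAP but no floxed Cic. Both groups thus shared the Cre driver, which acts in cells of the Otp lineage only, and the TRAP allele, which tags ribosomes in those cells so that the RNA on them can be pulled down from dissected hypothalamus and medial amygdala. The age and sex of the mice are not given in the labels. Nor is it said whether a library stands for 1 mouse, so the p-values reflect only the spread between libraries, which may be technical.

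Maf proteins are basic leucine zipper (bZIP) transcription factors that bind Maf recognition elements. The small Maf proteins lack a transactivation domain of their own: as homodimers they repress, and as partners of a CNC protein such as NRF1 or NRF2 they activate genes with antioxidant response elements, while dimers with BACH1 or BACH2 repress many of the same elements. NRF2 is held low by KEAP1-driven degradation and drives antioxidant genes, NRF1 is processed at the endoplasmic reticulum and drives proteasome genes, BACH1 is a heme-sensing repressor of heme and iron genes, and large Maf proteins such as c-MAF carry an activation domain and act in lineage choices of neurons and myeloid cells.

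Promoter sequences are shown first because Maff is known from other systems as a gene that Capicua represses, and Capicua binds short octamers. RefSeq promoters on GRCm38.p6 (250 bases before to 50 after a start) matched 7 of the 8 genes, with 13 windows in all. The octamers TGAATGAA and TGAATGGA, searched on both strands, lay in windows of Maff and Mafg, and in 2.47% of all 32851 windows. At the start of a Maff transcript (chromosome 15, base 79347520, plus strand) TGAATGAA ran from base -2 to base 6, counting the first transcribed base as 1. It began in an intron of a longer Maff transcript and ended in the first exon of this one. A cAMP response element, TGACGTCA, which reads the same on both strands and was found in 1.79% of windows, ran from base -29 to base -22. Both are in capitals in the stretch from chr15:79347270-79347525:
Maff: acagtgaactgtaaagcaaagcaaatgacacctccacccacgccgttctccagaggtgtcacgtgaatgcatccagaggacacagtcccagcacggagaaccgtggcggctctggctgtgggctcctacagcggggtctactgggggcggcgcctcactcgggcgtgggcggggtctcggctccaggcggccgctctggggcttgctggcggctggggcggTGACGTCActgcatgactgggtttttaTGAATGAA

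The Mafg octamer is TGAATGGA, from base -52 to base -45 before the RefSeq start, inside the first exon of a GENCODE Mafg transcript. The windows below set it beside the Maff octamer, with the octamer in capitals, from chr15:79347507-79347536 on the plus strand and chr11:120633581-120633610 on the minus strand:
Maff octamer: ctgggtttttaTGAATGAAaggaatcctgt
Mafg octamer: tcgccgcttcaTGAATGGAacccacgtgac
These letters are a description of the windows, and no binding was measured.

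The core of the antioxidant response element, the site of CNC and small Maf dimers, was searched as TGACNNNGC on both strands and lay in 12.4% of windows. It was found at Maff (another start, bases -112 to -104), Mafg (-222 to -214), Mafk (-13 to -5) and Nfe2l2 (-240 to -232). These 4 are shown because they are the genes of the group whose own windows hold the element that their proteins bind, with the match in capitals. Mafg and Mafk hold it on the opposite strand, so their capitals read in reverse complement. The windows are chr15:79346499-79346528 (plus), chr11:120633750-120633779 (minus), chr5:139791513-139791542 (plus) and chr2:75704884-75704913 (minus):
Maff element: gggcgtctcaTGACTCTGCcactggaaaga
Mafg element: ctctgcaggaGCACGGTCAacccggcgagc
Mafk element: gatcccggaaGCGGTGTCAgtactggggag
Nfe2l2 element: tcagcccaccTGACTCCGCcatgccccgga

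Gene counts ran from 33223878 to 57300362 per library. Values are CPM, counts per 1000000 gene counts, scaled with edgeR's TMM factors. Cic, the targeted gene, measured 44.9, 34.5, 59.3 and 37.5 CPM in KO replicates 1 to 4 and 102.8, 72.4, 101.3 and 100.5 CPM in Control replicates 1 to 4, so every KO library lay below every Control library. Control replicate 2 was the low one of its group. The log2 fold change was -1.10 (SE 0.21, edgeR adjusted p = 0.00220). Reads over the whole gene are counted, so transcripts that lack the deleted part and RNA of cells without Cre are included. No library of input RNA was used here, so enrichment by the pull-down was not measured. RNA of markers of the labelled lineage was present. The 11 markers listed for it had a summed level of 1413 to 2258 CPM in the KO libraries against 1228 to 1265 in the Control libraries. These sums did not overlap, but 0 of the 11 genes passed the edgeR test. An unadjusted p under 0.05 was reached by 7 of the 11, against 10.6% of all genes tested. By itself 1, Nhlh2, did not overlap, against 5.93% of all genes tested. All 11 fold changes were positive, with a median of 0.46 on the log2 scale. Of all genes tested 53.8% were positive, with a median of 0.02. The sums are carried by abundant genes such as Sst at 431 to 1021 CPM, but the direction was shared by the whole list. Otp itself was low at 2.28 to 8.55 CPM. The pull-down also held RNA of other cells. The 14 oligodendrocyte markers summed to 1793 to 3277 CPM in KO against 2799 to 3590 in Control. Of these 14, 1 fell, against 0.0648% of all genes tested. All 14 were negative (median -0.34), 8 had an unadjusted p under 0.05 and 4 lay lower in KO without overlap. Over all genes tested the last 2 shares were 10.6% and 2.91%. Of 9 oligodendrocyte precursor markers 8 were negative and 1 positive, and of 14 microglial markers 13 and 1. The 10 astrocyte markers, 6 negative and 4 positive, summed to 1274 to 1740 CPM over all libraries. The only covariate used for cell types was a glial and vascular marker score, given with the values of Maf. It does not measure the labelled lineage, so the part of the lineage markers in the results was not tested. On the log2 CPM scale, Control replicates 1 and 4 (4.215 and 3.968) scored above every KO library. Control replicates 2 and 3 (3.267 and 3.217) lay among the KO libraries, whose extremes were 2.993 and 3.705. The score pools several cell types, so the part of oligodendrocytes alone was not tested either. In RNA from pooled cells, fewer cells of a type and less RNA per cell cannot be told apart.

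Maff, whose product is a stress- and signal-inducible small Maf, was the gene of the group that rose. It measured 11.7, 7.85, 6.09 and 5.64 CPM in KO replicates 1 to 4, and 1.69, 3.25, 1.69 and 1.72 CPM in Control replicates 1 to 4. The groups did not overlap: the lowest KO library stood at 5.64 CPM and the highest Control library at 3.25. The KO libraries were spread over a range that KO replicate 1 topped, while Control replicates 1, 3 and 4 were nearly alike and replicate 2 stood apart above them. These values rest on 183 to 567 reads in KO and 64 to 138 in Control. From KO replicate 1 to 4, gene counts also fell at each step, from 49587839 to 33223878. The share of records that did not align uniquely rose at each step, from 69.2% to 81.9%. The Control libraries followed neither order. The part of depth or of that share in the Maff values was not tested. The means were 7.82 ± 2.75 CPM in KO and 2.09 ± 0.771 in Control (SD, n = 4 each), a log2 fold change of 1.91 (SE 0.33, edgeR adjusted p = 0.00484) or 3.75-fold, with a 95% interval of 2.39- to 6.28-fold by limma-voom. The call held in 18 of 18 alternative settings, with log2 fold changes of 1.63 (without KO replicate 1) to 2.20 (without Control replicate 2).

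**Figure D1:**
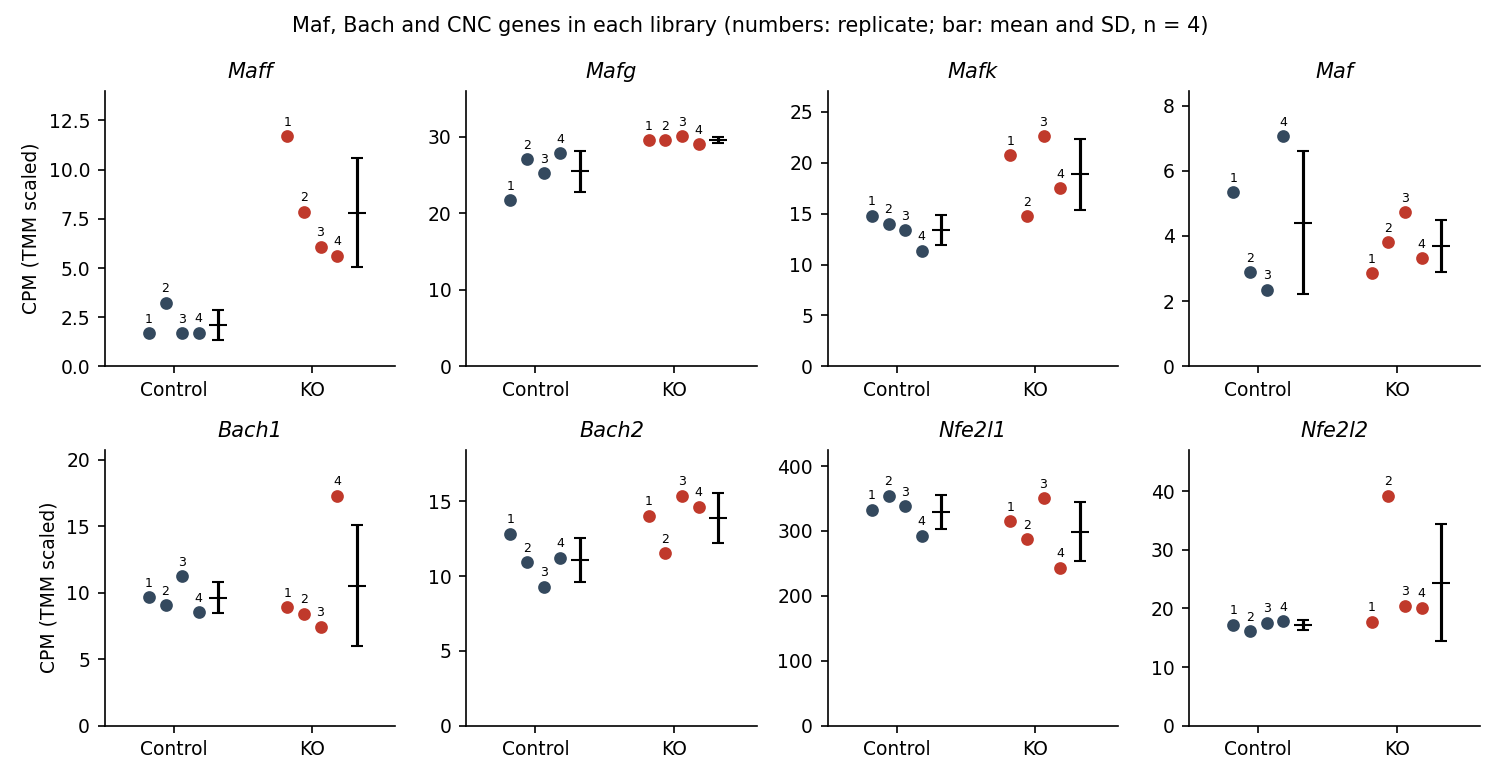
CPM of each of the 8 genes (vertical axes, linear from 0) in the 4 Control and 4 KO libraries, with the replicate number above each point and the mean ± SD beside each group. Maff shows KO libraries at 5.64 to 11.7 CPM above Control libraries at 1.69 to 3.25 CPM, and Nfe2l2 and Bach1 show a single KO library that stands above the rest.

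Control replicate 2 was at the same time the Control library with the most Maff (3.25 CPM) and the least Cic (72.4 CPM). Within KO the order was not reversed in that way, since KO replicate 1 had the most Maff at 11.7 CPM with 44.9 CPM of Cic, and KO replicate 2 had the least Cic at 34.5 CPM with 7.85 CPM of Maff. The libraries fall into groups by genotype, so no correlation is given. The ETS factor gene Etv4, also known as a target of Capicua, stood at 1.69 CPM in Control replicate 2, the highest of a group whose other libraries had 0.804, 1.43 and 0.851 CPM. Spry4, a feedback inhibitor of receptor tyrosine kinase signalling and another such target, stood lowest of its group there, at 21.1 CPM against 22.8 to 31.9. The other listed targets that rose in KO, Etv5 (28.3 CPM), Spred3 (39.7) and Dusp4 (3.98), lay there within the range of the other Control libraries. Of 19 tested genes listed as Capicua targets, Maff among them, 4 were highest and 5 lowest of Control in that library.

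**Figure D2:**
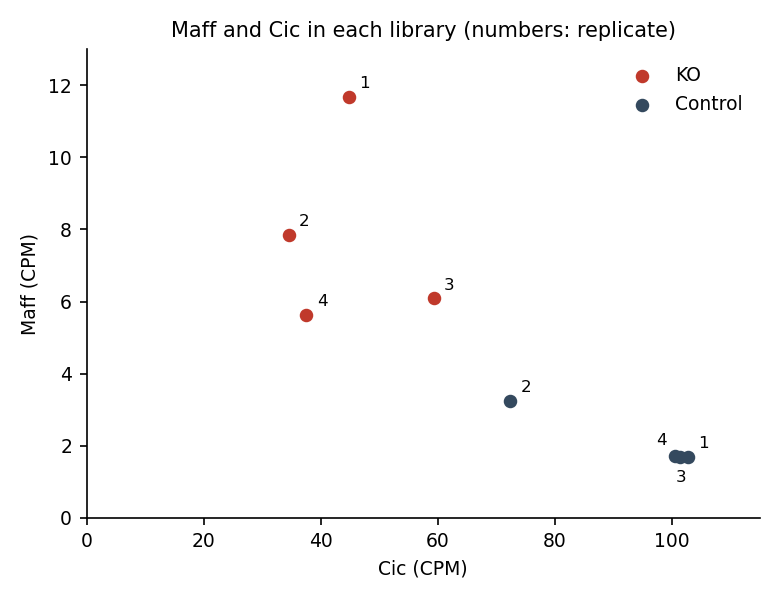
Maff (vertical axis, CPM) against Cic (horizontal axis, CPM) in each library, both axes linear from 0, with replicate numbers. Control replicate 2 lies at 72.4 CPM of Cic and 3.25 CPM of Maff, to the left of and above the other Control libraries, and the KO libraries lie at 5.64 CPM of Maff or more.

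Mafg, a broadly expressed small Maf, stood at 29.6, 29.6, 30.1 and 29.05 CPM in KO replicates 1 to 4 and at 21.8, 27.1, 25.3 and 27.8 CPM in Control replicates 1 to 4. The KO libraries were close together, with a coefficient of variation of 1.40%, and all lay above the Control libraries. The difference was small and did not pass the test across all genes (log2 fold change 0.21, SE 0.08, edgeR adjusted p = 0.597, 95% interval 0.972- to 1.41-fold). Mafg shares 124 exon bases with Sirt7 on the same strand, so reads there are uncertain.

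Mafk, the small Maf first found with the erythroid CNC factor, stood at 20.7, 14.7, 22.6 and 17.5 CPM in KO replicates 1 to 4 and at 14.8, 13.995, 13.4 and 11.3 CPM in Control replicates 1 to 4. Of the KO libraries 3 lay above every Control library, and KO replicate 2 lay just under the highest Control library. Mafk did not pass the test (log2 fold change 0.50, SE 0.16, edgeR adjusted p = 0.269, unadjusted p = 0.00727), although its 95% interval, which is not adjusted for the number of genes, ran from 1.09- to 1.78-fold. Mafk shares 169 exon bases with Tmem184a on the opposite strand, and the libraries do not mark strand.

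Maff was also set against its sister genes within each library. The log2 ratio of Maff to Mafg was -1.97 ± 0.47 in KO and -3.63 ± 0.42 in Control, and that of Maff to Mafk was -1.31 ± 0.53 and -2.70 ± 0.44 (SD, n = 4 each). Neither ratio overlapped between groups, with differences of 1.66 and 1.40. They are given as a description, with no test, because the change in Maff was known when they were chosen. Levels of different genes were compared per kilobase of exon (FPKM, with exon lengths from GENCODE M21). The 3 small Maf genes together reached 11.8 to 15.1 FPKM in the KO libraries and 8.32 to 9.66 in the Control libraries. Maff made up 22.7% ± 5.88 of that sum in KO and 9.05% ± 2.60 in Control, Mafg 40.5% ± 4.19 and 51.8% ± 4.87, and Mafk 36.8% ± 4.88 and 39.2% ± 4.88. Maff was thus the least abundant small Maf transcript in every Control library and, at 17.4% to 29.9% of the sum, still the least abundant in every KO library.

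**Figure D3:**
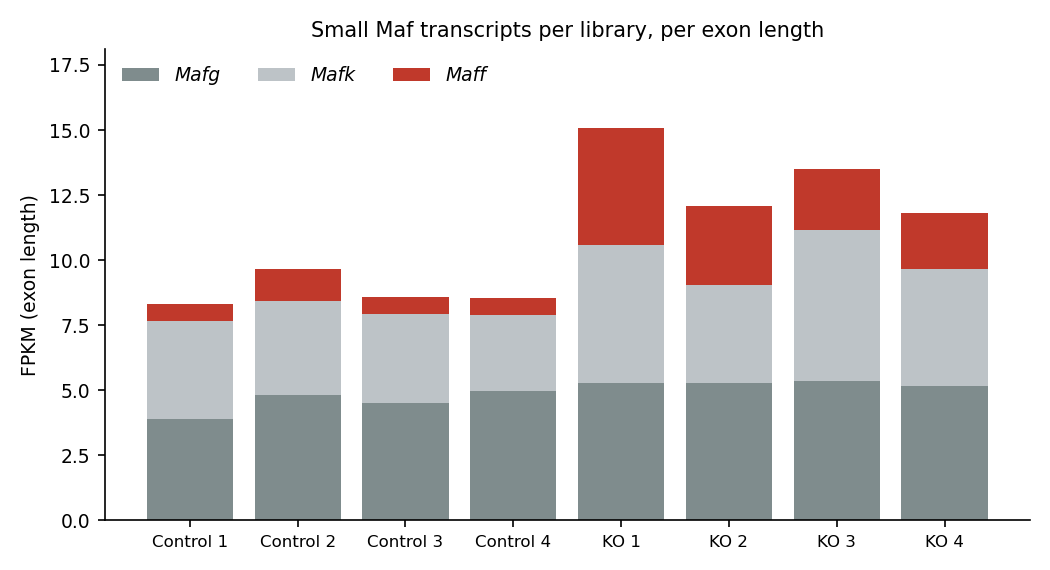
Stacked bars of Mafg, Mafk and Maff (FPKM per exon length, axis from 0) in each library. The total runs from 8.32 to 9.66 FPKM in the Control libraries and from 11.8 to 15.1 FPKM in the KO libraries, and the Maff segment is larger in each KO library than in any Control library.

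Maf itself, the large factor c-MAF, was the least abundant of the 8 genes per exon length in both groups. It measured 2.87, 3.81, 4.73 and 3.33 CPM in KO replicates 1 to 4 and 5.34, 2.89, 2.36 and 7.05 CPM in Control replicates 1 to 4. The groups overlapped fully, because Control replicates 1 and 4 were high and Control replicates 2 and 3 low. Maf did not pass the test (log2 fold change -0.26, SE 0.40, edgeR adjusted p = 0.845, 95% interval 0.536- to 1.40-fold), and without Control replicate 4 its log2 fold change was 0.055. Maf is also expressed by microglia, endothelial cells and interneurons. Control replicates 1 and 4 had the most microglial RNA, with 14 markers summing to 92.98 and 97.2 CPM, against 32.4 and 40.45 CPM in Control replicates 2 and 3 and 35.7 to 57.2 CPM in KO. Their part in the Maf values was not tested library by library. With a glial and vascular marker score as covariate the log2 fold change of Maf was 0.15 (edgeR adjusted p = 0.935). That of Maff was 1.68 (edgeR adjusted p = 0.0237). Maf was not called with or without the covariate, so its change of sign is a description only.

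Among relatives of these genes, Nfe2l3 and Nrl did not pass the test, and neither had an unadjusted p under 0.05 (log2 fold changes -0.33 and 0.43). Nfe2l3, which encodes NRF3, had 4.90 ± 1.65 CPM in KO and 6.15 ± 1.28 in Control (SD, n = 4 each, edgeR adjusted p = 0.733), and Nrl, the rod photoreceptor Maf, 2.10 ± 0.920 and 1.55 ± 0.250 CPM (edgeR adjusted p = 0.772). Mafa, known from pancreatic beta cells, and Nfe2, the erythroid CNC gene, had 0 counts in every library. A count of 0 allows up to 3 counts, or 0.0524 to 0.0903 CPM depending on the library. The haemoglobin genes of red blood cells were below 1 CPM in all libraries as well.

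The Bach repressors did not pass. Bach1 measured 8.90, 8.43, 7.42 and 17.3 CPM in KO replicates 1 to 4 and 9.64, 9.03, 11.2 and 8.53 CPM in Control replicates 1 to 4. KO replicate 4 was the highest library and KO replicates 2 and 3 were the lowest, so the KO group surrounded the Control group (log2 fold change 0.13, SE 0.29, edgeR adjusted p = 0.904, 95% interval 0.733- to 1.40-fold). Without KO replicate 4 the log2 fold change was -0.22 (edgeR adjusted p = 0.664). KO replicate 4 was also the library with the fewest gene counts, 33223878, and the largest share of records that did not align uniquely, 81.9%, and the part of either in its Bach1 value was not tested.

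Bach2, a repressor best known from lymphocytes and also expressed in neurons, measured 14.04, 11.5, 15.4 and 14.6 CPM in KO replicates 1 to 4 and 12.8, 10.9, 9.29 and 11.2 CPM in Control replicates 1 to 4. KO replicates 1, 3 and 4 lay above every Control library and KO replicate 2 within their range. It did not pass the test (log2 fold change 0.33, SE 0.13, edgeR adjusted p = 0.515, 95% interval 0.967- to 1.58-fold). Bach2 shares 537 of its 9940 exon bases with the antisense gene Bach2os, and without strand the reads in those bases cannot be assigned to either gene.

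Nfe2l1, the NRF1 gene, was the most abundant of the group by far. It measured 315, 287, 351 and 244 CPM in KO replicates 1 to 4 and 333, 354, 338 and 292 CPM in Control replicates 1 to 4. KO replicates 2 and 4 lay below all Control libraries and KO replicates 1 and 3 within their range, and the difference did not pass (log2 fold change -0.14, SE 0.13, edgeR adjusted p = 0.765). Its 95% interval of 0.756- to 1.08-fold, from 7905 to 19442 reads per library, holds the narrowest span of fold among the 8 genes.

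Nfe2l2, the NRF2 gene, measured 17.8, 39.2, 20.5 and 20.1 CPM in KO replicates 1 to 4 and 17.3, 16.1, 17.6 and 17.8 CPM in Control replicates 1 to 4. The Control libraries were close together, with a coefficient of variation of 4.49%, whereas KO replicate 2 stood at 39.2 CPM, far above all other libraries. The difference did not pass the test (log2 fold change 0.51, SE 0.26, edgeR adjusted p = 0.358, unadjusted p = 0.0204, 95% interval 1.01- to 1.81-fold), and the log2 fold change was 0.17 without KO replicate 2. Of 27 antioxidant genes, 9 had their highest KO value in KO replicate 2, 9 in KO replicate 4, 5 in KO replicate 1 and 4 in KO replicate 3. The median gene of the list stood 0.13 on the log2 scale above the mean of the other KO libraries in KO replicate 2. The matching share of all genes tested is not given here, so these counts are a description.

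Per exon length, the Control order was Nfe2l1 (60.5 ± 4.83 FPKM), Mafg (4.54 ± 0.483), Nfe2l2 (4.52 ± 0.203), Mafk (3.43 ± 0.377), Bach1 (1.55 ± 0.189), Bach2 (1.11 ± 0.146), Maff (0.806 ± 0.297) and Maf (0.535 ± 0.265), each as mean ± SD of 4 libraries. Among neighbours in that order, Mafg and Nfe2l2, Bach2 and Maff, and Maff and Maf overlapped over the Control libraries, and the others did not. In KO the order was Nfe2l1 (55.0 ± 8.30 FPKM), Nfe2l2 (6.43 ± 2.62), Mafg (5.27 ± 0.0740), Mafk (4.84 ± 0.892), Maff (3.01 ± 1.06), Bach1 (1.70 ± 0.737), Bach2 (1.40 ± 0.168) and Maf (0.447 ± 0.0966). Maff was thus placed above both Bach genes by its KO mean. Its KO range of 2.17 to 4.51 FPKM still overlapped those of Mafk (3.77 to 5.78) and Bach1 (1.201 to 2.80).

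As a group, 1 of the 8 genes rose, 0 fell and 7 did not pass. Of all 15438 genes tested, 40 passed, which is 0.259%, and 0.194% rose and 0.0648% fell. The libraries of KO and Control did not overlap for 2 of the 8 genes, Maff and Mafg, both higher in KO, whereas 5.93% of all genes tested did not overlap, 3.01% higher and 2.91% lower in KO. An unadjusted p under 0.05 was reached by 3 genes, Maff, Mafk and Nfe2l2, against 10.6% of all genes tested. The median log2 fold change was 0.27 over the 8 genes and 0.02 over all genes tested, with 6 positive and 2 negative among the 8 and 53.8% positive among all. Since Maff was put in the group with its change already known, these counts are a description.

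**Figure D4:**
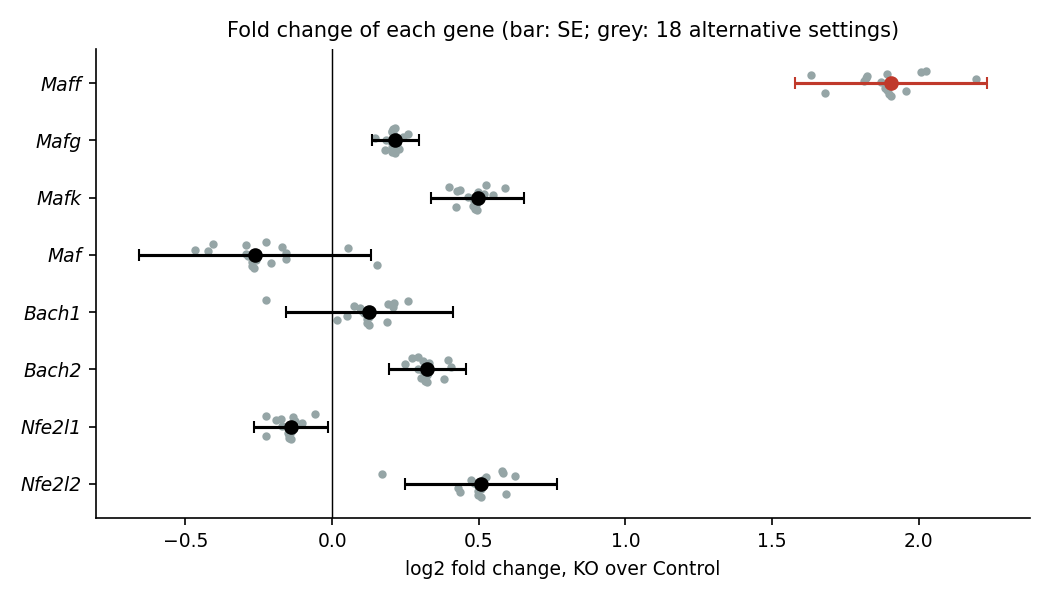
Log2 fold change of KO over Control for each of the 8 genes (horizontal axis), with the SE as a bar and the values under 18 alternative settings as grey points. Maff at 1.91, in red as past the threshold, stands apart from the other 7 genes, which lie between -0.26 and 0.51.

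No gene on the lists of genes these factors act on was called by edgeR. Since only 0.259% of all genes tested were called, a short list is likely to hold none. An unadjusted p under 0.05 was reached by 10.6% of all genes tested. The counts for these lists are therefore a description. Of 28 antioxidant genes 27 were tested, 0 rose and 0 fell (5 had an unadjusted p under 0.05). Fold changes were positive for 18 and negative for 9, with a median of 0.09 on the log2 scale. Gsta4, a glutathione transferase for lipid peroxidation products, had the smallest p, with 137 ± 26.5 CPM in KO and 91.2 ± 8.36 in Control (0.59, edgeR adjusted p = 0.0875). Srxn1, sulfiredoxin, had the smallest p on the negative side, with 159 ± 10.7 and 189 ± 6.37 CPM (-0.25, edgeR adjusted p = 0.417). In 4 of the 27 genes every KO library lay above every Control library, and in 1, Srxn1, every KO library lay below, against 3.01% and 2.91% of all genes tested. Besides Gsta4 the higher ones were the catalase gene Cat (0.54, edgeR adjusted p = 0.126), Gstm1 (0.39, edgeR adjusted p = 0.213) and the fatty aldehyde dehydrogenase gene Aldh3a2 (0.34, edgeR adjusted p = 0.340), picked out after their values were seen. The classic NRF2 targets Hmox1 (heme oxygenase, 0.10), Nqo1 (0.34), Gclc (-0.02) and Gclm (0.13), also picked out after the fact, had edgeR adjusted p from 0.770 to 0.980.

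Of 18 heme and iron genes 17 were tested and none was called, with 10 positive, 7 negative and a median of 0.04 (2 had an unadjusted p under 0.05). Over all genes tested, 0.259% were called and 10.6% had an unadjusted p under 0.05. Blvra, biliverdin reductase, was at 0.38 (edgeR adjusted p = 0.470) and the heme transporter gene Slc48a1 at -0.33 (edgeR adjusted p = 0.283). All 32 proteasome genes were tested and none was called or had an unadjusted p under 0.05, with 17 positive, 15 negative and a median of 0.01. Psmd6 was at 0.21 and Psma7 at -0.29. Of the 32 proteasome genes, 21 were highest of KO in KO replicate 4 and 20 highest of Control in Control replicate 4. The share of all genes tested that were highest in these libraries is not given here. The counts therefore describe the libraries and are not shown to be a trait of proteasome genes. KO replicate 4 was the KO library with the lowest Nfe2l1, at 244 CPM, and Control replicate 4 the Control library with the lowest, at 292 CPM. The same libraries had the largest share of records that did not align uniquely in their groups, 81.9% and 74.1%. The part of either in the proteasome values was not tested.

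The 14 genes that set the turnover or processing of NRF1 and NRF2 were all tested and none was called (1 had an unadjusted p under 0.05, 9 were positive, 5 negative, median 0.03). Over all genes tested, 0.259% were called and 10.6% had an unadjusted p under 0.05. Vcp, the segregase that extracts NRF1 from the membrane, was at 0.29 (edgeR adjusted p = 0.411) and the ubiquitin ligase gene Rbx1 at -0.11 (edgeR adjusted p = 0.808). Of the AP-1 and related bZIP genes 10 of 12 were tested and none was called (1 had an unadjusted p under 0.05, 6 positive, 4 negative, median 0.02), with Jun at 0.33 (edgeR adjusted p = 0.411) and Atf3, listed at under 1 CPM in both group means, at -0.74 (edgeR adjusted p = 0.772). Among 20 genes that other systems give as repressed by Capicua, a list that includes Maff, 19 were tested, 6 rose and 0 fell. Of all genes tested 0.194% rose and 0.0648% fell. Of the 19, 16 were positive and 3 negative (median 0.52). An unadjusted p under 0.05 was reached by 14, against 10.6% of all genes tested. Higher in KO without overlap were 12, against 3.01%. The list was chosen with earlier results of these data known, so these counts are a description. Only Etv4, at 2.24, had a larger fold change than Maff among these 19. Etv5 (1.29), Spry4 (1.39), Spred3 (1.27) and Dusp4 (1.22) were the others that rose, and Spry1 had the smallest p on the negative side (-0.18, edgeR adjusted p = 0.837).

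**Figure D5:**
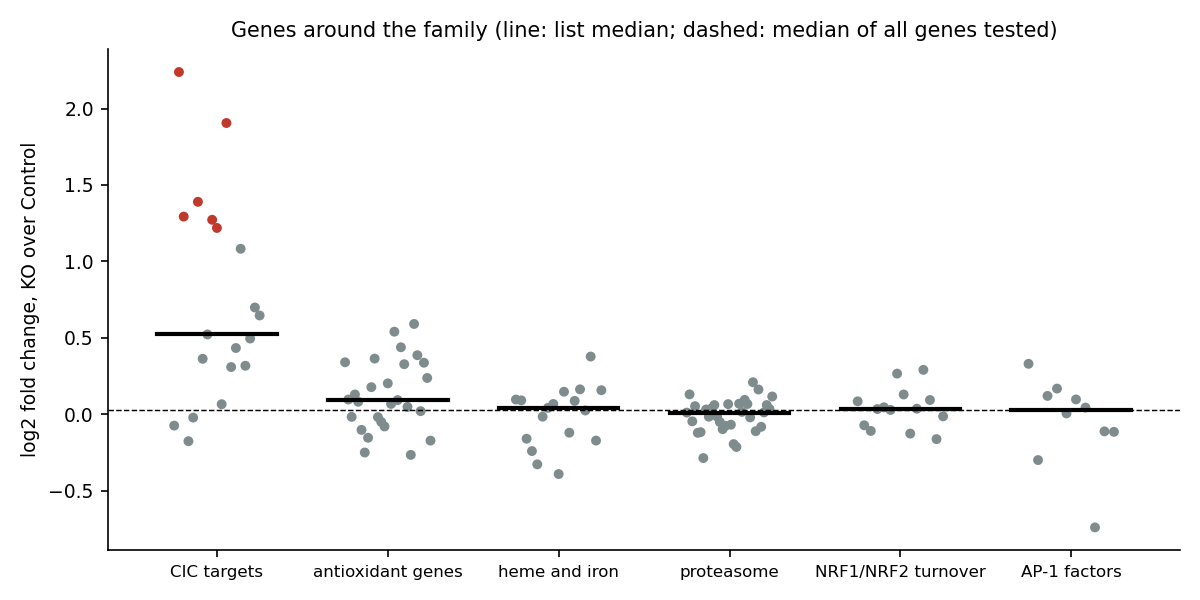
Log2 fold change of KO over Control (vertical axis) for every tested gene of the 6 lists, with list medians as lines, the median of all genes tested as a dashed line, and genes past the threshold in red. The red points are 6 Capicua targets, Maff among them, and the medians of the other lists lie between 0.01 and 0.09.

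The genes whose pattern was most like that of Maff were ranked by Pearson's correlation of log2 CPM over the 8 libraries among 12800 genes. The first 4 were Bpifb1 (0.952), Nufip1 (0.951), Etv4 (0.949) and Arhgap24 (0.947). Of these Etv4 alone passed the test between the groups. After the group means were taken out, the first 4 were Atpaf2 (0.978), Trmt12 (0.975), Arhgef25 (0.969) and Rnf113a1 (0.968), and Etv4 was at 0.602. The sister genes Mafg and Mafk ranked 275 and 314 with 0.763 and 0.752, and 0.292 and 0.147 once group means were removed. These correlations come from few libraries that share a group difference and are given as a description.

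On GRCm38 with GENCODE M21, Maff (ENSMUSG00000042622.14) spans bases 79346621 to 79359076 of chromosome 15, plus strand, and overlaps no other annotated gene. Mafg (ENSMUSG00000051510.13) lies on chromosome 11 from 120625117 to 120633600, minus, and Mafk (ENSMUSG00000018143.10) on chromosome 5 from 139791513 to 139802653, plus. Maf (ENSMUSG00000055435.6) lies on chromosome 8 from 115682942 to 115707794, minus, and shares 440 exon bases with an antisense gene that has no row in the tables. Bach1 (ENSMUSG00000025612.5) lies on chromosome 16 from 87698945 to 87733346, plus, and Bach2 (ENSMUSG00000040270.16) on chromosome 4 from 32238804 to 32586108, plus. Nfe2l1 (ENSMUSG00000038615.17) lies on chromosome 11 from 96817414 to 96829968, minus, and Nfe2l2 (ENSMUSG00000015839.6) on chromosome 2 from 75675513 to 75704641, minus. None is on chromosome 7, which carries Cic.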

How the data were processed

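Each library came as a deposited table of whole-number counts by gene symbol. The submitters' processing notes name TopHat2 2.0.9, HTSeq, DESeq2 and the build mm10. The annotation and strand setting of the counting were not given in the sources used here. RNA was amplified from 10 ng with poly(A) and random priming, per the labels' protocols, and the libraries do not mark strand. There are no molecular identifiers, so the limit that a count of 0 allows covers counting error only. Library sizes and tests used gene rows alone, without 92 spike-in rows and 5 counter rows. Spike-in counts came to 0.066%, 0.057%, 0.39% and 0.074% of gene counts in KO replicates 1 to 4. In Control replicates 1 to 4 they came to 0.30%, 0.52%, 0.40% and 0.33%. KO replicates 1, 2 and 4 thus lay below every Control library, and KO replicate 3 within the Control range. The part of this difference in the results was not tested. Of all records, 63.3% to 81.9% did not align uniquely and 7.98% to 8.98% lay in no feature. Over 28 pairs of libraries, chi-square per degree of freedom was 26.9 or more, so none repeats another.

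The test was that of edgeR 4.0.16 under R 4.3.3 (filterByExpr with minimum count 10 and minimum total 15, TMM, robust quasi-likelihood fit, KO against Control, no covariate), with Benjamini-Hochberg adjustment over all genes and a threshold of 0.05. This fit gives each "edgeR adjusted p". SE is that of the difference of mean log2 CPM (prior count 2), intervals are from limma-voom (limma 3.58.1), and DESeq2 1.42.0 was an alternative. The model was tested on counts simulated from the mean levels and dispersion trend of these data. Such counts cannot show how well it fits the libraries themselves. The genes and lists were chosen with earlier results of these data known. Named were all 8 genes, relatives, from each list the called genes and those of smallest p in each direction, and the genes most like Maff (the first 5 by rule). Some genes under this rule are not reported here. FPKM is CPM per kilobase of GENCODE exon union, which may differ from the authors' gene models. Promoters are RefSeq's.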

Additional observations from a re-analysis of the deposited data

Results flagged for a closer look

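Among 28 genes (the 8 genes, Cic, tested relatives and the genes that the naming rule takes from the lists), with 56 groups of 4 libraries examined, 6 groups held a library that stood far from the other 3. The cut-off is one that chance passes in about 1 of 20 independent groups of normally distributed values. The groups here use the same 8 libraries again for each gene, so that rate is no yardstick for the 6. Maff stood at 3.25 CPM in Control replicate 2, against 1.69 to 1.72 CPM in the other Control libraries. Cic stood at 72.4 CPM in the same library, against 100.5 to 102.8 CPM. Bach1 stood at 17.3 CPM in KO replicate 4, against 7.42 to 8.90 CPM. Nfe2l2 stood at 39.2 CPM in KO replicate 2, against 17.8 to 20.5 CPM. Vcp stood at 149 CPM in KO replicate 1, against 108 to 114 CPM. Psma7 stood low in Control replicate 3, at 170.4 CPM against 193 to 195 CPM.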

How the results depend on the processing

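Over 18 alternative settings, Maff stayed past the threshold (edgeR, DESeq2 or limma adjusted p 6.74e-07 to 0.0411), and the other 7 genes stayed short of it, so the count of called genes in the group was 1 throughout. Fold changes turned sign for Bach1 without KO replicate 4 (-0.22) and for Maf with the covariate for glial and vascular markers (0.15) or without Control replicate 4 (0.055). None of the 3 was called, and the cause was not tested. Leaving out 1 library gave log2 fold changes of -0.22 to 0.26 for Bach1 and -0.47 to 0.055 for Maf. The count of called genes over the whole table, 40, moved to 200 with DESeq2, 22 with limma-voom, 22 with the covariate and 26 with total counts only. Leaving out 1 library gave 14 to 53, with 19, 17, 26 and 14 without Control replicates 1 to 4 and 26 without KO replicate 2. Same-numbered libraries correlated at -0.05 to 0.10 in their deviations from the group means and are not stated to be paired. With the replicate number as a block 65 genes were called, and Maff was at 1.90 (edgeR adjusted p = 0.00158). At the depth of Maff, 64 reads in the lowest library, counting error adds to the spread.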
